A study of Rattus norvegicus with 24 samples.

Results

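Transcript signals of 4 dual-specificity phosphatases, Dusp1, Dusp5, Dusp6 and Dusp19, were followed in 6 regions of the rat brain 40 min after an injection of MK-801, which blocks the ion channel of NMDA-type glutamate receptors. The members were every probe whose gene name on the array, read without the suffixes that mark predicted or mapped genes, is 1 of these 4 names. That gave 4 probes of 41012 on the array, 1 for each gene, among 35525 genes or unnamed transcripts. The 4 genes were chosen for their measured responses to the drug in these samples, so their changes with dose are given as a description and carry no test.

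All animals were male Wistar rats, 9 in all, of which 3 received saline and the others received MK-801 into the abdominal cavity at a low dose of 0.08 mg/kg or a high dose of 0.16 mg/kg. The sample titles name the groups Control+Saline, Control+low and Control+high, so all rats shared the label Control, which the titles do not explain. Their age is given as 9 weeks with the samples and as 10 weeks in the study's design text. Cerebral cortex, hippocampus, amygdala, ventral striatum, hypothalamus and midbrain were dissected, and each of 24 two-colour arrays set RNA of 1 region from treated rats against RNA of the same region from saline rats. Every region had 2 arrays at each dose, or 12 pairs in all, with the dyes exchanged and the treated RNA being in Cy5 on 1 array and in Cy3 on its partner. The sources used here do not say whether the RNA of several rats was pooled or whether a dye-swapped pair held the same extracts, so a pair was averaged and counted as 1 value. The 6 regions then served as the replicates of a dose. With 9 rats in all and 3 on saline, the 6 regions of a group share animals and are not independent, so the standard errors and p-values below describe the spread between regions and may be too small for a comparison between rats. Both doses of a region shared a slide and were compared with saline RNA of that region.

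Mitogen-activated protein kinases (MAP kinases: ERK, JNK and p38) are switched on by phosphorylation of a threonine and a tyrosine in their activation loop. Dual-specificity MAP kinase phosphatases remove both phosphates and so switch the kinases off. Several of them are induced by the signals that they later shut down, so their transcripts can reflect recent signalling. In the whole-tissue RNA used here, the cells that held these transcripts are not known. Dusp1 is a nuclear phosphatase and an immediate-early gene that acts on p38, JNK and ERK. Dusp5 is a nuclear phosphatase selective for ERK, Dusp6 is its cytoplasmic counterpart, and Dusp19 is a small atypical member of the family that has been tied to JNK signalling.

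The probes of the 2 members with the largest responses are shown because each result on them rests on 1 oligonucleotide. Coordinates are those printed with the array design, on rat build rn3, and no annotation of that build was used, so exons and untranslated regions are not given. The 60 bases of the Dusp1 probe cover 320 bases of genome (chr10:16945391-16945710), so the probe does not lie in 1 unbroken stretch of the genome. The Dusp19 probe covers 60 bases (chr3:63376805-63376864). Of the 3 forward reading frames, 1 in the Dusp1 probe and 2 in the Dusp19 probe hold no stop codon.
Dusp1 probe A_43_P12927: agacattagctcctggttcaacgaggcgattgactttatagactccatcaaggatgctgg
Dusp19 probe A_44_P992697: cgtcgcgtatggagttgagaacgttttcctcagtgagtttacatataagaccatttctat
The Dusp5 probe (A_42_P739860) lies at chr1:259978481-259978540 and the Dusp6 probe (A_42_P594613) at chr7:36917125-36917184. In the array's design the Dusp19 probe carries the name of a predicted gene.

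The promoters of Dusp1 and Dusp5 are shown because their ratios of treated over saline signal had the highest correlation among the members. Pearson r was 0.84 over the 12 means of regions and doses. The sizes of the changes differed, with mean log2 ratios of 1.09 for Dusp1 and 0.14 for Dusp5 at the high dose. Sequences are from RefSeq on build GRCr8 and cover the 250 bases before the annotated start, on the plus strand. Capitals mark TGACG, the core of the cyclic AMP response element, read on either strand, and the CArG box, the binding motif of serum response factor.
Dusp1 chr10:17184603-17184852: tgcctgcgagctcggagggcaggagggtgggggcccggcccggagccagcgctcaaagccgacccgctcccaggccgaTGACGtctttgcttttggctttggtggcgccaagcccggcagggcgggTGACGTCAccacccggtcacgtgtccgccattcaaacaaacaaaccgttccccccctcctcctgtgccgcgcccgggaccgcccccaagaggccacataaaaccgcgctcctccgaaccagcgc
Dusp5 chr1:262543524-262543773: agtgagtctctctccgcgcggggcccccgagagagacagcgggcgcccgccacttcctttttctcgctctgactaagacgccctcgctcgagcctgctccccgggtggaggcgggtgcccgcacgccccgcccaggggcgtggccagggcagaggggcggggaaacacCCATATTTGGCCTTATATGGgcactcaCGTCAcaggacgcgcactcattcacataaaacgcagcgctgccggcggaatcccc
The Dusp1 window held the full palindrome TGACGTCA from 124 to 117 bases before the start, which contains TGACG on each strand, and a further TGACG from 172 to 168 bases before it. The Dusp5 window held 2 CArG boxes side by side, CCATATTTGG from 82 to 73 and CCTTATATGG from 72 to 63 bases before the start, and TGACG on the minus strand from 55 to 51. Among 27457 promoters of the same length, 1.7% held TGACGTCA, 19% held TGACG and 1.5% held a CArG box. The bases G and C made up 68.8% of the Dusp1 and 67.2% of the Dusp5 window, against a median of 52% over these promoters. The shares were not matched for base composition. The Dusp19 window held TGACG once, on the minus strand, and the ETS motif CCGGAAG once, a motif found in 7.74% of promoters. The Dusp6 window held none of the motifs searched. The AP-1 motif TGANTCA (6.36% of promoters), AGAACA of the glucocorticoid receptor element (17.1%) and TATAAA (13.1%) were in none of the 4 windows. All motifs were searched on both strands, and only in these 250 bases, so sites farther from the start were not covered. A match is a stretch of letters, and binding was not measured.

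All 4 member probes were well above background in both channels on every array, and none was saturated. In each comparison a gene was tested if at least 1 channel was well above background on both arrays in all 6 regions, and all 4 members passed. The threshold was a Benjamini-Hochberg adjusted p of 0.05 in limma's moderated test of the mean over 6 regions. At the high dose 459 of 18662 genes passed it (2.46%), at the low dose 551 of 19877 (2.77%), and for the difference between doses 325 of 18166 (1.79%). Among the 4 members, 1 passed upward (Dusp1; background 1.32%) and 1 downward (Dusp19; background 1.14%) at the high dose, and 1 upward (Dusp1; background 1.37%) at the low dose, where none passed downward (background 1.40%). For the high over the low dose, 1 passed upward (Dusp1; background 1.03%) and 1 downward (Dusp19; background 0.760%). Because the members were chosen on these contrasts, nothing is read from these counts. Values below are log2 ratios of treated over saline signal unless a level is named, and the error of a mean over 6 regions is the limma standard error.

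The labelled regions were checked against marker genes in the saline channel. The marker lists of cortex, hippocampus, ventral striatum, hypothalamus and midbrain each had their highest median difference in the region they name, at 1.45, 1.16, 4.03, 0.06 and 2.98 on the log2 scale against the mean of the other regions, so the hypothalamic list separated its region least. No list was kept for the amygdala, where all 11 meningeal markers and all 10 choroid plexus markers were higher than the mean of the other regions. In whole tissue, fewer cells of a type and less RNA per cell cannot be told apart. Median net signal on the arrays ranged from 74.5 to 407, and precision is limited by the 2 arrays of a pair and the 6 regions of a dose.

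Dusp1 transcripts were higher after MK-801 in every region at both doses. At the high dose the pair of arrays gave 1.61 and 1.44 in the amygdala, 1.44 and 1.48 in the cortex, and 1.15 and 1.09 in the hippocampus. The ventral striatum gave 0.96 and 1.13, the hypothalamus 0.76 and 0.90, and the midbrain 0.39 and 0.71. All 12 arrays were above 0, with the amygdala and cortex highest and the midbrain lowest. The mean was 1.09 ± 0.10 (SE, n = 6 regions), a 2.13-fold higher signal, and the region means ran from 0.55 in the midbrain (1.46-fold) to 1.52 in the amygdala (2.88-fold). Dusp1 ranked 6th from the top of the 18662 genes tested at this dose by the size of its mean. Because the gene was chosen on its measured response, this rank is a description.

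The response of Dusp1 to the low dose was smaller in every region. The cortex gave 0.91 and 1.11, the amygdala 0.72 and 0.58, and the ventral striatum 0.54 and 0.75. The hypothalamus gave 0.55 on both arrays, the hippocampus 0.26 and 0.71, and the midbrain 0.03 and 0.33. The 12 arrays were all above 0, and the cortex was the only region in which both low-dose values exceeded the highest low-dose value of the other regions. The mean was 0.59 ± 0.08 (SE, n = 6 regions). The high dose exceeded the low dose by 0.50 ± 0.06, and by region from 0.28 in the hypothalamus to 0.87 in the amygdala. The order of the regions was therefore not the same at both doses: the amygdala rose from 0.65 to 1.52 and passed the cortex, which went from 1.01 to 1.46. Between these 2 regions the high-dose values overlapped. Marker ratios also differed between them. In the amygdala the median of the 4 choroid plexus markers was 1.12 with the high and 0.24 with the low dose, and in the cortex 0.03 and -0.14. That of the 10 meningeal and fibroblast markers was 0.04 and -0.97 in the cortex, and 0.08 and -0.05 in the amygdala. The part of tissue makeup in the order of the regions was not tested.

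**Figure D1:**
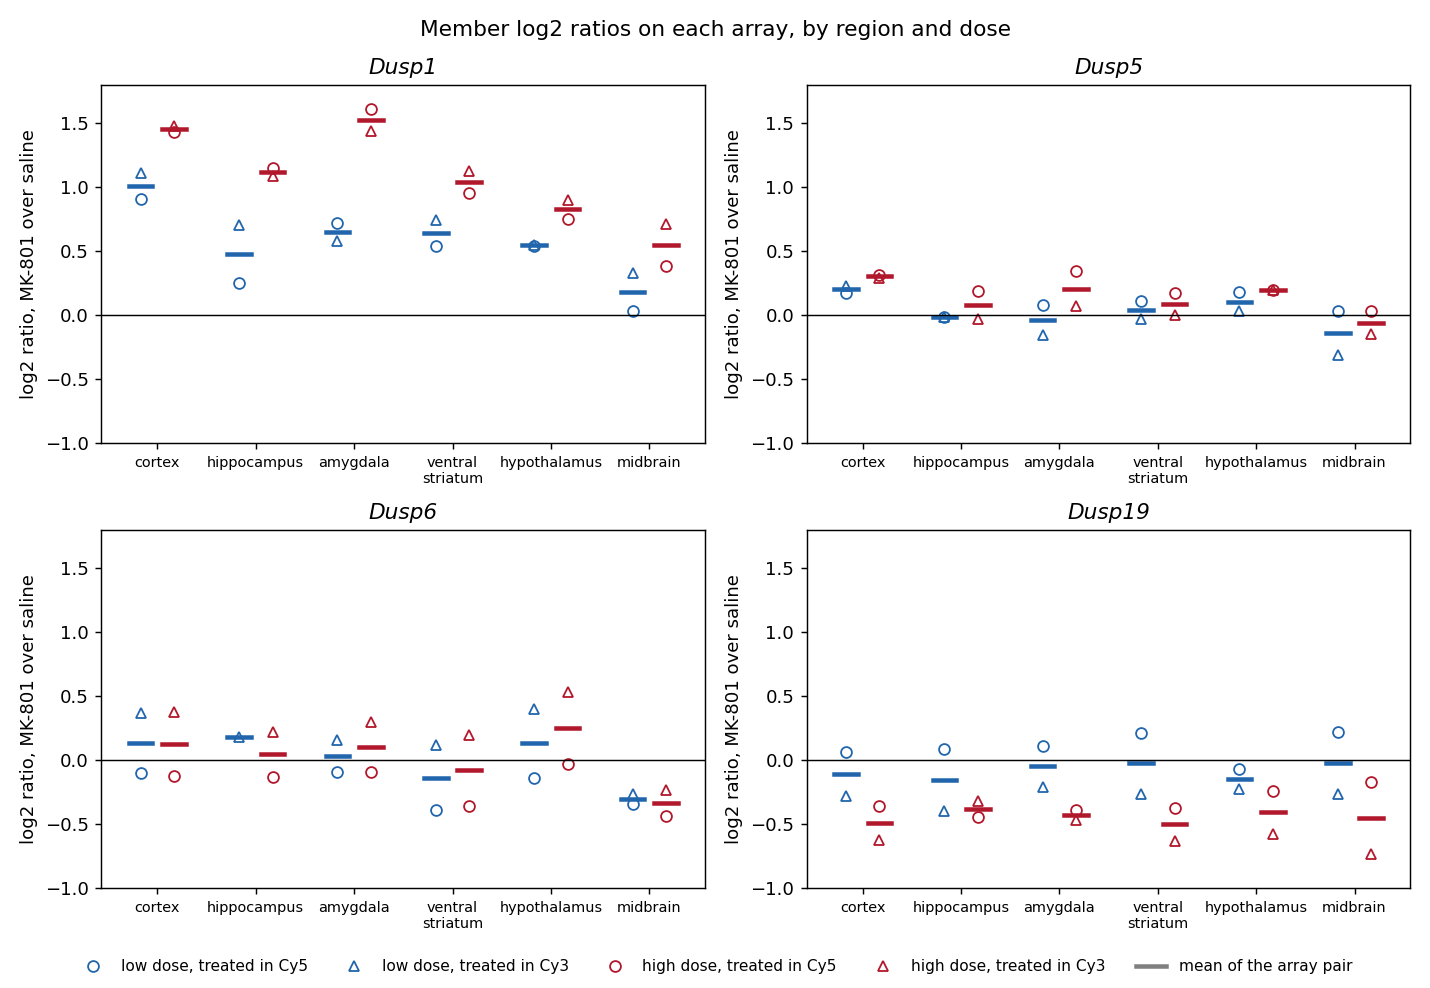
Log2 ratio of MK-801 over saline on each array for the 4 phosphatases, by region and dose, with circles for treated RNA in Cy5, triangles for treated RNA in Cy3 and bars for the mean of the pair. Dusp1 is above 0 on all 24 arrays, Dusp19 is below 0 on all 12 high-dose arrays, and the 2 dye orientations of Dusp6 lie on opposite sides of 0 in most regions.

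Dusp1 in the saline channel was highest in the hypothalamus, at 11.19 ± 0.29 (SD, n = 4 arrays of the region), followed by the cortex at 10.50 ± 0.38 and the midbrain at 9.91 ± 0.15. The ventral striatum (9.57 ± 0.34), the amygdala (9.44 ± 0.21) and the hippocampus (8.70 ± 0.37) were lower. These are log2 signals of 1 probe. Every pair of neighbours in this order overlapped in its arrays, while the ends differed by 2.49, a 5.61-fold difference in signal. The high-dose ratios did not follow this order in either direction. From the highest saline signal to the lowest they were 0.83 (hypothalamus), 1.46 (cortex), 0.55 (midbrain), 1.04 (ventral striatum), 1.52 (amygdala) and 1.12 (hippocampus). The saline signal is also the denominator of the ratio. Each region was measured on a slide of its own, so in these levels a region and its slide cannot be told apart.

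Dusp5 had small ratios that were highest in the cortex and lowest in the midbrain at both doses. At the high dose the 2 arrays gave 0.31 and 0.29 in the cortex, 0.34 and 0.07 in the amygdala, and 0.20 and 0.20 in the hypothalamus. The other regions gave 0.17 and -0.00 (ventral striatum), 0.19 and -0.03 (hippocampus), and 0.03 and -0.15 (midbrain). The mean, given as a description, was 0.14 ± 0.04 (SE, n = 6 regions), positive in 5 of 6 regions. The low-dose mean was 0.03 ± 0.04, positive in 3 of 6 regions, with the midbrain lowest at -0.14 and the cortex highest at 0.20. The high dose lay above the low dose in 6 of 6 regions, by 0.05 to 0.24 and by 0.11 ± 0.03 on average.

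Only in the cortex and hypothalamus were both arrays of Dusp5 above 0 at both doses. The Cy5 arrays gave a high-dose mean of 0.21 and the Cy3 arrays 0.06, a difference about as large as the mean itself. In saline, Dusp5 had the widest span of the 4 genes over the regions, 2.70 on the log2 scale or 6.48-fold. Its signal was highest in the hippocampus (11.54 ± 0.54, SD, n = 4 arrays), then cortex (10.89 ± 0.12), ventral striatum (10.31 ± 0.16), amygdala (9.87 ± 0.16), hypothalamus (9.66 ± 0.15) and midbrain (8.84 ± 0.23). The arrays of cortex and ventral striatum did not overlap, nor did those of ventral striatum and amygdala or of hypothalamus and midbrain. The hippocampus and cortex overlapped, as did the amygdala and hypothalamus.

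**Figure D2:**
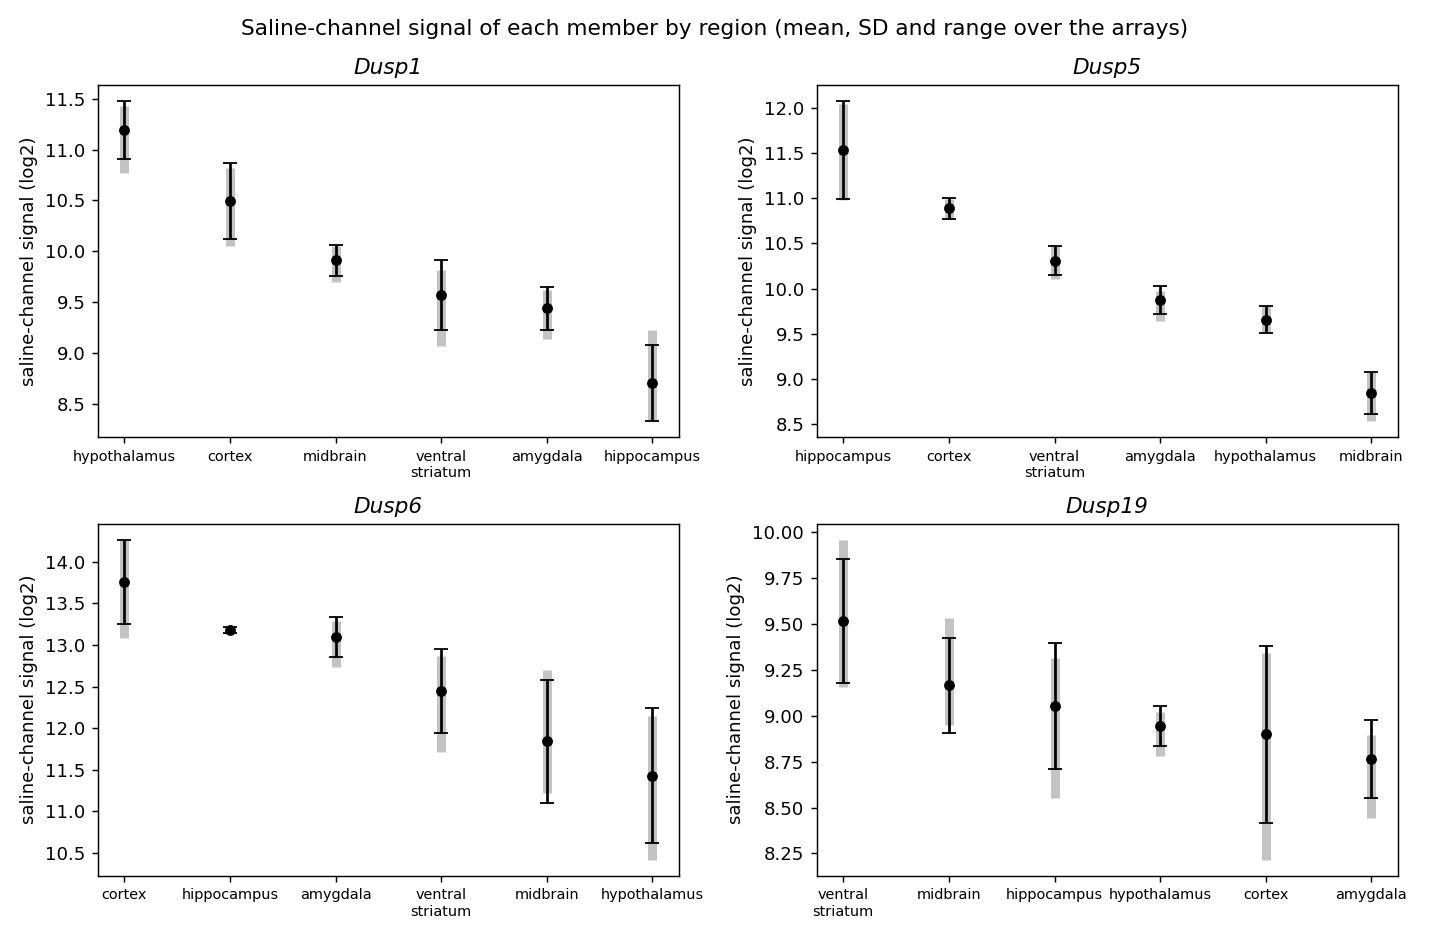
Saline-channel log2 signal of each phosphatase by region, ordered from high to low, with points for the mean, error bars for the SD and grey bars for the range over 4 arrays (3 for Dusp6 in the hippocampus). Dusp5 falls from 11.54 in the hippocampus to 8.84 in the midbrain, and the regions of Dusp19 all overlap with their neighbours; the vertical scale differs between panels, and levels of different probes are not comparable.

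Dusp6 had a mean near 0 at both doses, with 0.02 ± 0.06 for the high and 0.01 ± 0.06 for the low dose (SE, n = 6 regions). The midbrain was the region farthest from 0, with -0.43 and -0.23 on the 2 high-dose arrays and -0.34 and -0.26 on the 2 low-dose arrays. It was the only region in which all 4 arrays had the same sign. The hypothalamus had the highest mean at the high dose, 0.25, from arrays at -0.03 and 0.53. The highest low-dose value was 0.18 in the hippocampus, which rests on 1 array because the other spot was flagged as an outlier by the scanner software and left out.

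The Dusp6 arrays split by dye orientation. With treated RNA in Cy5 all 6 high-dose values and all 5 low-dose values were below 0, with means of -0.19 and -0.21. With treated RNA in Cy3, 5 of 6 values were above 0 at each dose, with means of 0.23 and 0.16. The average of a pair removes a dye effect that is equal on both arrays. Between the doses Dusp6 differed by 0.01 ± 0.04, with 3 regions up and 3 down.

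In the midbrain, where Dusp6 was lowest, the median ratio of the meningeal and fibroblast markers was 0.57 with the high and -0.26 with the low dose, and that of the cortical markers -0.07 and -0.08. The part of tissue makeup in the Dusp6 values was not tested. In saline Dusp6 was highest in the cortex (13.76 ± 0.51, SD, n = 4 arrays), then hippocampus (13.18 ± 0.04, n = 3), amygdala (13.10 ± 0.25), ventral striatum (12.45 ± 0.51), midbrain (11.84 ± 0.74) and hypothalamus (11.43 ± 0.81). All neighbours in this order overlapped, and with the scanner software's own processed signals the hippocampus and amygdala changed places. The ends of the order differed 5.03-fold.

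Dusp19 was lower after the high dose in every region and on every array. The Cy5 and Cy3 arrays gave -0.36 and -0.62 in the cortex, -0.38 and -0.63 in the ventral striatum, and -0.17 and -0.73 in the midbrain. The amygdala gave -0.39 and -0.47, the hypothalamus -0.24 and -0.57, and the hippocampus -0.45 and -0.32. The region means were close together, from -0.50 in the ventral striatum to -0.38 in the hippocampus. Their mean was -0.44 ± 0.03 (SE, n = 6 regions), a 1.36-fold lower signal. Dusp19 ranked 18th from the bottom of the 18662 genes tested, a description as for Dusp1.

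Dusp19 was near 0 at the low dose. Its mean was -0.08 ± 0.03 (SE, n = 6 regions), with region means from -0.16 in the hippocampus to -0.02 in the ventral striatum and midbrain. The sign depended on the dye: the Cy5 arrays averaged 0.11, with 5 of 6 above 0, and the Cy3 arrays averaged -0.27, with 6 of 6 below 0. The high dose lay below the low dose in all 6 regions, by 0.36 ± 0.04 on average, with differences from -0.48 in the ventral striatum to -0.22 in the hippocampus. With the scanner software's processed signals the high-dose mean was -0.58.

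Dusp19 varied least between regions in saline, with 0.75 on the log2 scale between the ventral striatum (9.52 ± 0.34, SD, n = 4 arrays) and the amygdala (8.76 ± 0.21). The midbrain (9.17 ± 0.26), hippocampus (9.05 ± 0.34), hypothalamus (8.94 ± 0.11) and cortex (8.90 ± 0.48) lay between, and all neighbours overlapped. Dusp1 and Dusp19 therefore had opposite signs at the high dose on each of the 12 arrays, and they differed in shape: the SD of the 6 high-dose region means was 0.37 for Dusp1 and 0.05 for Dusp19.

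**Figure D3:**
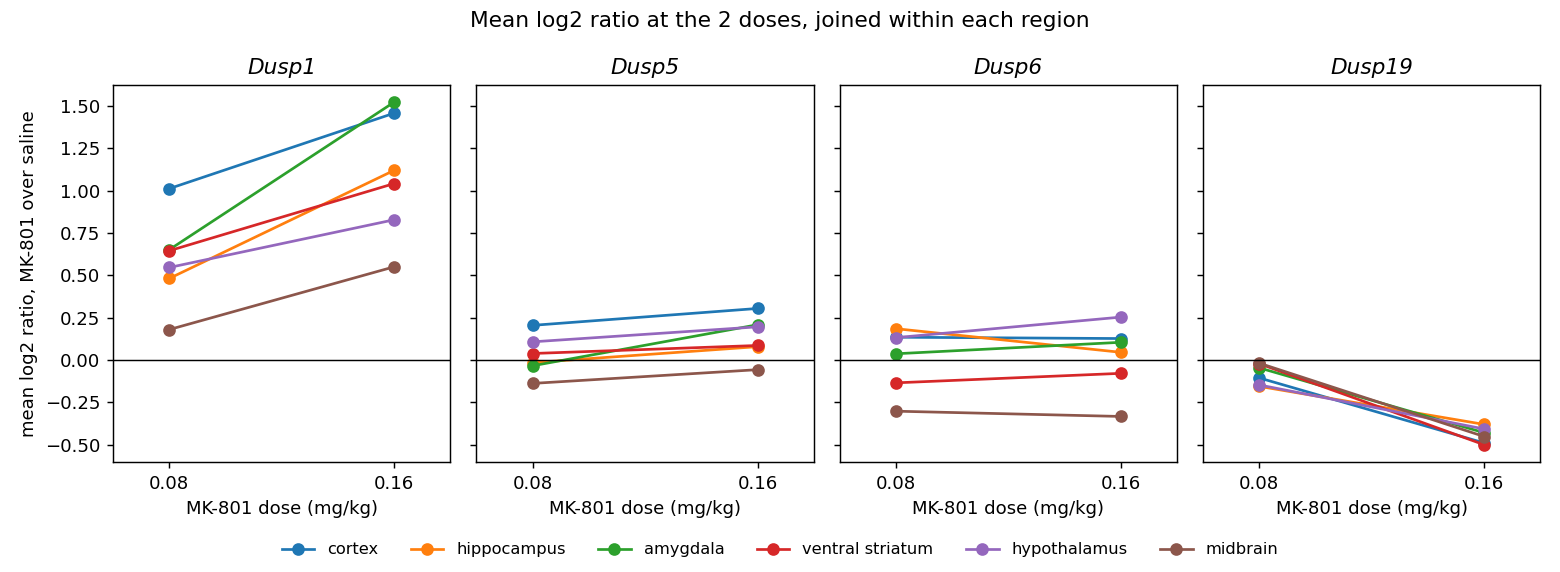
Mean log2 ratio of MK-801 over saline (pairs of dye-swapped arrays) against dose for each phosphatase, with 1 line for each region. All 6 lines rise for Dusp1 and Dusp5 and fall for Dusp19, while Dusp6 has 3 lines up and 3 down.

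Arrays were scanned on 3 days with 2 regions on each, so day and region pair cannot be told apart. Within the days, the mean of Dusp1 at the high dose was 1.25 (cortex and ventral striatum), 1.04 (midbrain and amygdala) and 0.97 (hippocampus and hypothalamus), and the low-dose means were 0.83, 0.42 and 0.51. Dusp19 at the high dose was -0.50, -0.44 and -0.39 in the same order, and at the low dose -0.06, -0.03 and -0.15. Dusp5 was 0.19, 0.08 and 0.14 at the high dose and 0.12, -0.09 and 0.05 at the low dose. Dusp6 was 0.02, -0.11 and 0.15 at the high dose and -0.00, -0.13 and 0.16 at the low dose. The signs of Dusp1 and Dusp19 were the same on the 3 days at both doses, and those of Dusp5 at the low dose and of Dusp6 were not.

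Markers of other cell types moved with dose beside these values. At the high dose 3 of the 4 tested blood cell markers were higher, with a median of 0.31, and at the low dose 3 of 5 were lower, with a median of -0.31. Hbb, a globin chain of haemoglobin, was 0.33 at the high dose (limma adjusted p = 0.0255) and -0.54 with the low dose (adjusted p = 0.00596). Dusp1 had the same sign at both doses while the blood markers did not, and for the difference between doses all 4 blood markers were higher, with a median of 0.68. Of 12 microglial markers 5 were higher at the low dose and 0 at the high dose. For high over low, 4 of them were lower and 0 higher, with a median of -0.06. Of 12 oligodendrocyte markers 2 were higher at the low dose (7 at an unadjusted limma p under 0.05), with a median of 0.10. At the high dose 1 was higher, with a median of 0.04. Of 10 astrocyte markers, Sox9 was lower at both doses (-0.34 and -0.27) and S100b was higher at the low dose (0.13). Meningeal and fibroblast markers had a median of -0.04 at the high dose (0 of 9 past the threshold in limma, 1 at an unadjusted p under 0.05) and -0.30 at the low dose, where all 10 means were below 0 and 1 passed the threshold. For high over low, all 9 were above 0, the direction of the Dusp1 difference, with a median of 0.27 and 0 past the threshold (2 at an unadjusted p under 0.05). Of the endothelial and mural markers, 1 of 12 was higher (Slc2a1) and 1 lower (Kdr) at the high dose, with a median of -0.03. The markers counted had passed the same background filter as the other genes, and their part in the Dusp values was not tested.

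The genes whose 12 mean ratios, 6 regions at 2 doses, ran most like those of a member were sought among 216 genes with a symbol and an SD of at least 0.2 over these means. The 12 points share slides and the saline RNA of each region, so the correlations are a description. For Dusp1 they were Depp1 (Pearson r = 0.94), Klf4 (0.93), a zinc-finger transcription factor, Apold1 (0.92), induced early in vascular endothelium, Sik1 (0.91), a salt-inducible kinase, and Atf3 (0.90), a stress-induced transcription factor. All 5 peaked in the cortex at the high dose, with Apold1 at 3.08 and Atf3 at 2.87 there. For Dusp5 they were Fos (0.84) and Jun (0.80), which form the AP-1 transcription factor, Btg2 (0.81), Ppp1r15a (0.80), a regulatory subunit of protein phosphatase 1, and Sik1 (0.79). These 5 also peaked in the cortex at the high dose, and Sik1 is on both lists.

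Dusp6 ran with another set: Gabrd (0.90) and Gabra4 (0.88), subunits of the GABA-A receptor, Ramp3 (0.89), a receptor chaperone, and the neuropeptide genes Crh (0.89) and Grp (0.88). All 5 were highest in the hypothalamus. For Dusp19 the closest genes included P3h3 (0.94), a prolyl hydroxylase, Irf7 (0.93), an interferon regulatory factor, Pyroxd2 (0.92) and Acad10 (0.92), an acyl-CoA dehydrogenase. Of these, Irf7 had the sign of Dusp19 at both doses, with means of -0.59 with the high and -0.19 with the low dose, whereas P3h3 went from 0.45 with the low dose to -0.74 with the high dose. Among the members, Dusp1 and Dusp5 were closest (r = 0.84 over the 12 means), then Dusp5 and Dusp6 (0.69) and Dusp1 and Dusp6 (0.45). Dusp19 gave -0.66 with Dusp1, -0.50 with Dusp5 and -0.12 with Dusp6.

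The rest of the phosphatase family did not pass the threshold. Of the 7 other MAP kinase phosphatases, all of them on the array, Dusp8 and Dusp9 were tested at the high dose and Dusp2 as well at the low dose, and 0 were called, with 0 at an unadjusted p under 0.05. The high-dose means were 0.07 ± 0.04 for Dusp8 and -0.01 ± 0.04 for Dusp9 (SE, n = 6 regions). With no filter on dim probes, 0 of the 7 passed in any comparison. Those left untested at the high dose then had means of -0.10 (Dusp16), -0.06 (Dusp2), -0.03 (Dusp10), -0.0003 (Dusp4) and 0.02 (Dusp7). Dusp16 and Dusp2 were below 0 in 6 of 6 regions there. For high over low Dusp2 was at -0.09, also below 0 in 6 of 6 regions. Dusp10, which acts on JNK and p38, was well above background in 0 of 6 regions at either dose, so its level is not resolved. Of 18 atypical dual-specificity phosphatases 13 were on the array and 8 were tested, with 0 called in limma's test (unadjusted p under 0.05: 0 at the high dose, 1 at the low dose) and medians of -0.01 and 0.03. Of 8 other phosphatases that act on MAP kinases, among them the striatal Ptpn5, 7 were tested and 0 were called in limma's test (unadjusted p under 0.05: 0 at the high dose, 1 at the low dose), with means from -0.04 to 0.05 at the high dose.

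Transcripts of the kinases on which these phosphatases act, and of the kinases above them, changed little. Phosphorylation and activity of the kinases were not measured. Of 10 MAP kinases tested at the high dose, 1 was lower and 0 higher. It was Mapk14, the p38 alpha kinase, at -0.17 ± 0.03 (SE, n = 6 regions, lower in 6 of 6; limma adjusted p = 0.00384), and its difference of high minus low dose was -0.15 ± 0.03 (adjusted p = 0.0263), a call lost without any 1 region except the ventral striatum (adjusted p from 0.053 to 0.101). Another probe of Mapk14 gave -0.18 at the high dose and the other 0.09, so the probes disagree, and the mean over probes, -0.09, did not pass. Of 20 upstream kinases tested, 1 was higher at each dose. Map3k6, a kinase of the ASK family, rose by 0.39 ± 0.04 at the high dose (adjusted p = 0.000649) and by 0.27 ± 0.02 at the low dose (adjusted p = 0.000129), in 6 of 6 regions at each.

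Feedback inhibitors of the ERK pathway split. Of 7 tested at the high dose, Errfi1, an inhibitor of the EGF receptor, rose by 0.32 ± 0.03 (adjusted p = 0.000346), and Spry2, a Sprouty protein induced by growth factors, was lower at -0.19 ± 0.03 (adjusted p = 0.00653), each in 6 of 6 regions. At the low dose 9 were tested and Errfi1 alone passed, at 0.23 ± 0.04 (adjusted p = 0.00522). Of 12 transcription factors and targets downstream of ERK, 2 rose at the high dose. Fos rose by 0.55 ± 0.08 (adjusted p = 0.00309), with region means from 0.15 to 0.90, and Junb by 0.34 ± 0.08 (adjusted p = 0.0432), and both form AP-1 complexes. The call of Junb was lost when the cortex, amygdala, hypothalamus or midbrain was left out, with means from 0.27 to 0.36 and adjusted p from 0.0591 to 0.155. With the low dose Fos was at 0.06 and Junb at 0.07, neither past the threshold, and 3 genes of the list were lower: Egr1, a zinc-finger early gene, at -0.26 ± 0.04 (adjusted p = 0.00717), Etv5, an ETS factor, at -0.16 ± 0.03 (adjusted p = 0.0212), and Ccnd1, cyclin D1, at -0.14 ± 0.03 (adjusted p = 0.0347). The call of Etv5 was lost when any region but the hippocampus was left out (-0.16 to -0.14, adjusted p from 0.0507 to 0.0856), and that of Ccnd1 without the cortex, hippocampus, hypothalamus or midbrain (-0.14 to -0.12, adjusted p from 0.0772 to 0.128). These 3 were below 0 in all regions at the low dose, and the median of the 12 tested genes was -0.05. Dusp1 was above 0 in all regions at that dose, and its relation to the genes of this list was not tested.

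A list of glucocorticoid-responsive genes was kept beside the pathway because Dusp1 is also a known target of the glucocorticoid receptor. Of its 14 tested genes, 11 rose with the high dose and 9 with the low dose, none fell, and the medians were 0.21 and 0.16. Sgk1, a kinase induced by corticosteroids, rose by 0.61 ± 0.05 (adjusted p = 0.00011) and 0.45 ± 0.04 (adjusted p = 4.31e-05). Tsc22d3, the leucine zipper protein also known as GILZ, rose by 0.29 ± 0.05 (adjusted p = 0.0101) and 0.25 ± 0.04 (adjusted p = 0.00386). Fkbp5, a chaperone of the receptor, rose by 0.19 ± 0.04 (adjusted p = 0.034) and 0.17 ± 0.04 (adjusted p = 0.0423), and its low-dose call was lost without any 1 region except the cortex (0.13 to 0.18, adjusted p from 0.0656 to 0.128) and its high-dose call without the cortex, amygdala, hypothalamus or midbrain (0.15 to 0.20, adjusted p from 0.064 to 0.113). Plekhf1, an endosomal protein, rose by 0.30 and 0.22, but was near 0 on the arrays with treated RNA in Cy5 (-0.0063 and -0.068). Nfkbia, the inhibitor of NF-kappa-B, rose by 0.24 and 0.14, and its low-dose call was lost without any 1 region except the amygdala (adjusted p from 0.0515 to 0.0818). Other calls in these counts were also lost on leaving out 1 region: at the high dose Per1 in 5 of 6 such fits (adjusted p up to 0.172), Mt1 in 3, Ddit4 in 2 and Klf9 in 1, and at the low dose Klf9 in 5. For the high over the low dose, 2 of the 14 passed, Sgk1 and Mt1. Map3k6 and Errfi1 belong to this list too. Over the 8 lists together, 78 genes were tested at the high dose, with 13 higher and 2 lower, or 19.2% against 2.46% of all genes. Of these calls 11 were glucocorticoid-responsive genes, and the others were Fos, Junb, Mapk14 and Spry2. The share therefore rests mostly on the list kept beside the pathway. For the low dose 82 were tested, with 9 higher, all of them glucocorticoid-responsive genes, and 3 lower. The lists were chosen with these data known, so the share of 19.2% is not independent evidence. With each array centred on its median in place of loess normalization, 0 genes of the lists passed for the high dose (limma) and 2 for the low dose.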

How the data were processed

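Agilent scanner output of 24 two-colour rat arrays gave spot intensity values per channel, deposited unnormalized and extracted with Agilent Feature Extraction 9.5.3.1, per the submitters' processing notes. The authors' deposited value table holds log10 ratios; set against the processed signals, 100% of values matched the log10 ratio of treated over saline to 0.01, with column medians from -0.03 to 0.02. The sources used here do not give how the authors normalized it. Mean and background signals were corrected by normexp (offset 50) and normalized by loess within each array, with control spots at weight 0 and outlier spots left out. Ratios were turned to treated over saline, spots of a probe and then dye-swapped pairs were averaged, and the probe brightest over all arrays stood for a gene. Saline levels were Aquantile-normalized between arrays. Fits used limma 3.58.1 (lmFit, eBayes) in R 4.3.3, over 6 regions, with Benjamini-Hochberg adjustment over all genes tested, and were tested on simulated data. P-values measure only the spread between regions. No 2 arrays held identical spots beyond 0.00222%. Names were updated through RefSeq (GRCr8): 12832 of 43379 spots matched by accession, 5725 by symbol, 3730 by synonym, and 21092 kept the file's name.

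The members and lists were chosen with earlier results of these data known. Named genes were the members, list genes past the threshold (at most 6 per list and comparison, by size), and the 5 genes most like each member, of which 1 is not reported here. Alternatives were the offset, processed signals, the deposited table, median centring, probe averaging, the dim-probe filter, scan day, and leaving out regions or a dye orientation; keeping outlier spots and single scan days were added after seeing the data.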

Additional observations from a re-analysis of the deposited data

Results flagged for a closer look

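For 6 genes of the pathway lists the ratios at the high and the low dose differed by limma's test of the difference within regions. Fos (0.50, adjusted p = 0.00938), Junb (0.27, adjusted p = 0.0137) and Egr1 (0.17, adjusted p = 0.0101) had higher ratios with the high dose in 6 of 6 regions. Egr1 was not raised over saline by the high dose. Its mean was -0.09 there, above 0 in 3 of 6 regions and not past the threshold, against -0.26 at the low dose. Mt1, a metallothionein, was higher by 0.19 (adjusted p = 0.0222) and Sgk1 by 0.16 (adjusted p = 0.0482), also in 6 of 6 regions. Mapk14 was lower, at -0.15 (adjusted p = 0.0263). The calls of Junb, Mt1, Sgk1 and Mapk14 were lost in 3, 3, 5 and 5 of the 6 fits that left out 1 region, with adjusted p up to 0.0608, 0.0817, 0.183 and 0.101. Under median centring none of these 6 differences passed the threshold. None of the 8 groups of 6 region means of the members had an outlying region.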

How the results depend on the processing

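Dusp1 kept its sign under every alternative, from 0.97 to 1.25 (high dose), 0.42 to 0.83 (low dose) and 0.42 to 0.62 (difference). Dusp19 at the high dose was -0.49 with offset 16, -0.58 with the processed signals and with the deposited table, -0.50 on scan day 1 and -0.39 on scan day 3; leaving out a region or a dye orientation gave -0.56 to -0.33. At the low dose it was -0.15 on scan day 3 and -0.27 to 0.11 when a region or dye was left out, and the difference was -0.50 with either of those 2 sources and -0.24 on scan day 3 (-0.44 to -0.28 leaving out). Dusp6 ranged from -0.19 to 0.23 at the high and -0.21 to 0.16 at the low dose on leaving out, with 1 dye orientation at each end. A single orientation keeps the dye effect.

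The number of genes called was 59, 211 and 25 under median centring (high dose, low dose, difference) and 363 at the low dose with scan day as a block. On scan days 1, 2 and 3 alone it was 265, 130 and 82 (high dose), 117, 41 and 146 (low dose), and 114, 42 and 53 (difference). Leaving out gave 267 (without the cortex; 288 without the amygdala, 293 without the ventral striatum) to 7185 at the high dose, 351 (without the cortex; 360 without the ventral striatum) to 7814 at the low dose, and 155 to 301 for the difference; the high counts keep 1 dye orientation. Of the genes in the 8 lists, 0, 2 and 0 were called under median centring, and 7 at the low dose and 3 for the difference with the processed signals and with the deposited table. Single scan days gave 8, 5 and 2, then 2, 1 and 1, then 1, 0 and 1. Leaving out gave 9 (without the cortex) to 37 at the high dose, 7 (without the hypothalamus or the midbrain) to 43 at the low dose, and 1 to 6 for the difference, which was 2 without the cortex and 3 without the amygdala, hypothalamus or midbrain. Klf9 turned to -0.044 at the high dose under median centring. With 1 dye orientation Mt1 ranged from -0.13 to 0.48 (high dose), Ddit4 from -0.31 to 0.78 (high) and -0.40 to 0.71 (low), and Plekhf1 from -0.0063 to 0.60 (high) and -0.068 to 0.51 (low). Where not named, the cause was not tested.

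No paired analysis was possible because the replicate number marks the dye orientation and no animal or extract, so there is no fit with it as a block; doses were paired by region in the test of their difference. Probes near background were left untested, which limits the other MAP kinase phosphatases.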
